A study of Rattus norvegicus with 15 samples.

Results

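The genes examined here encode proteins that end or adjust the response of an olfactory neuron to an odorant: the receptor kinases Adrbk1 and Adrbk2, the arrestins Arrb1 and Arrb2, the regulators of G protein signalling Rgs2 and Rgs3, and the neuronal calcium sensors Vsnl1, Ncald and Hpcal1. The members were all non-control probes whose gene name in the scanner files, without the suffix _predicted or _mapped, was one of these 9 names. This gave 11 of the 41012 probes of the array, with 1 probe for each gene except Vsnl1 and Ncald, which had 2 each. The 9 accessions that these probes carry were all found in RefSeq, where Adrbk1 is now named Grk2 and Adrbk2 is named Grk3. In this tissue, 11 of the 11 probes were scored as expressed, against 65.1% of all probes. No member passed a false discovery rate of 1% between the sexes, between nostrils or between rats of one sex. Few of all tested probes did so, at 0.0434%, 0% and 2.79% in that order.

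The samples were olfactory epithelia of naive Brown Norway rats aged 6 weeks, 4 males (rats 1, 2, 5 and 6) and 4 females (rats 3, 4, 7 and 8). The epithelia of nostrils A and B were hybridized separately, except for male 1, of which only nostril A was used, so that there were 7 male and 8 female arrays. All rats were killed under ketamine anaesthesia, the design held no treatment and no engineered allele, and the tissue was a whole dissected epithelium, in which neurons, supporting cells, basal cells, blood and bone are measured together. The rats came from 2 suppliers, and the labels do not say which rat came from which supplier or which nostril was left. By the methods, the sample missing from a male was a left one of a rat from Elevage Janvier, so the array of male 1 was of the right side. The arrays shared 4 slides: males 1 and 2 were on slide 1 with nostril A of female 3, the other female 3 array and female 4 were on slide 2, males 5 and 6 were on slide 3, and females 7 and 8 were on slide 4.

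An odorant receptor that has been activated is phosphorylated by a G protein-coupled receptor kinase, and the phosphorylated receptor is bound by an arrestin, which uncouples it from the G protein. Regulators of G protein signalling (RGS proteins) speed the hydrolysis of GTP by G alpha subunits, and RGS2 is known to reduce the activity of the olfactory adenylyl cyclase Adcy3. Neuronal calcium sensors are small EF-hand proteins that change shape when calcium enters the cell, as it does through the olfactory cyclic nucleotide-gated channel, and that then bind membranes and target enzymes.

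The level of each gene is the brightness of 60-base oligonucleotides, and the sequences of the kinase, arrestin, Rgs3 and one Vsnl1 probe are given so that the target of each measurement can be seen. In the pair of kinase probes, the capitals mark the stretch over which the probes align without a gap, of 36 bases with 22 identical (61.1%).

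Adrbk1 (A_44_P491621): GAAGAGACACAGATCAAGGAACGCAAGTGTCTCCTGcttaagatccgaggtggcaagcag

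Adrbk2 (A_44_P146640): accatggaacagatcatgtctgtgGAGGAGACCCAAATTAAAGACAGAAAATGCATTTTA

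The aligned stretch lies at the start of the Adrbk1 probe (bases 1 to 36) and at the end of the Adrbk2 probe (bases 25 to 60). Among the other 54 pairs of member probes, aligned in the same way, the most identical bases were 24, over a longer stretch of up to 48 bases. The Adrbk1 probe was placed by the array annotation, which used the rat build rn3, at chr1:207027182-207027241 on the minus strand. The Adrbk2 probe was on an unplaced sequence, at positions 51677810 to 51677869 of chrUn, minus strand.

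The probes of Arrb1, Arrb2 and Rgs3 each occupy a genomic interval longer than their 60 bases, so each is split over exons and interrupted by intron sequence in the genome.

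Arrb1 (A_44_P402468): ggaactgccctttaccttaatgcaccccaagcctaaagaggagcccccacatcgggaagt

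Arrb2 (A_44_P379214): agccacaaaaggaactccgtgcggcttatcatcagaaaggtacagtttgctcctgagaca

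Rgs3 (A_44_P468360): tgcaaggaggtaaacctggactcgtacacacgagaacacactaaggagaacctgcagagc

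The interval of the Arrb1 probe is 1050 bases (chr1:157013450-157014499), that of the Arrb2 probe 195 bases (chr10:57294664-57294858) and that of the Rgs3 probe 1018 bases (chr5:79712237-79713254), all on the plus strand. The remaining probes each lie in 1 uninterrupted block of 60 bases: Rgs2 at chr13:57905038-57905097, Ncald at chr7:72897082-72897141 and chr7:72902514-72902573, and Hpcal1 at chr6:41579165-41579224. The Hpcal1 probe is on the plus strand and the others on the minus strand.

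The Vsnl1 probes lie apart in the gene. The probe A_42_P832417 (chr6:34774157-34774216, minus strand) can be read without a stop codon in 2 of its forward frames, and the other, A_42_P534882 (chr6:34773184-34773243, minus strand), in none.

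Vsnl1 (A_42_P832417): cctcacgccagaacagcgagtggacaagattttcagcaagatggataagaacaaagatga

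The signal of each probe was divided by the median probe of its array and is given as log2, so that a level of 0 is the signal of the median probe and a level of 3 is 8 times that. A probe was scored as expressed when it was well above background on at least 11 of the 15 arrays, as 65.1% of all probes were. Brightness also depends on the probe itself, so the ranks given below place a probe on the array and do not order the genes by amount of mRNA. Fewer cells of a type and less mRNA per cell cannot be told apart in this tissue.

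Of the receptor kinases, Adrbk1 had a clear signal and Adrbk2 was close to the limit of detection. Adrbk1, a kinase found in most tissues, was well above background on 15 arrays, at log2 2.81 to 3.27 (median 2.98), with rank 10865 of 41012. Adrbk2, the kinase best known for acting on odorant receptors in olfactory cilia, was at -2.70 to -1.71 (median -2.31), with rank 27438. Its intensities of 10.98 to 21.02 units lay beside the lowest intensity that passed as well above background on an array, which was 10.01 to 14.49 units. Adrbk2 was well above background on 5 of 7 male and 7 of 8 female arrays, the exceptions being nostril A of male 1, of female 3 and of male 6. It was significantly positive on all 15.

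The arrestins differed in the same way. Arrb2, the arrestin that accompanies Adrbk2 in olfactory neurons, was well above background on 15 arrays, at log2 2.92 to 3.69 (median 3.11), with rank 10432. Its highest array was nostril A of female 3 (3.69), and the next highest was 3.36, in female 4. Arrb1, the other widely expressed arrestin, was at -2.03 to -0.90 (median -1.26), with rank 24644, and was not well above background on 1 array, nostril B of male 6. A probe on the array described as similar to beta-arrestin carries another accession and was not counted as a member.

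The RGS genes were brighter on the array. Rgs2 was at log2 3.71 to 4.98 (median 4.28), with rank 7143, and had the widest range over arrays of all members that were detected throughout. Rgs3, which acts on several G alpha classes, was at 5.20 to 5.74 (median 5.45), with rank 4455. The groups of arrays overlapped for both genes.

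The calcium sensors were all detected on 15 arrays. Vsnl1 (visinin-like 1) had the brightest member probe, A_42_P534882, at log2 5.57 to 6.27 (median 5.99), with rank 3460, and its other probe was at 4.48 to 4.77 (median 4.62), with rank 6339. Ncald (neurocalcin delta) was at 3.81 to 4.25 (median 3.99), rank 7988, by A_43_P10560 and at 1.47 to 1.92 (median 1.66), rank 15104, by A_44_P213426. Hpcal1 (hippocalcin-like 1) was at 3.84 to 4.28 (median 4.05), with rank 7847. No member spot was saturated on any array. In all, 9 of the 11 member probes were brighter than the median probe on every array.

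**Figure D1:**
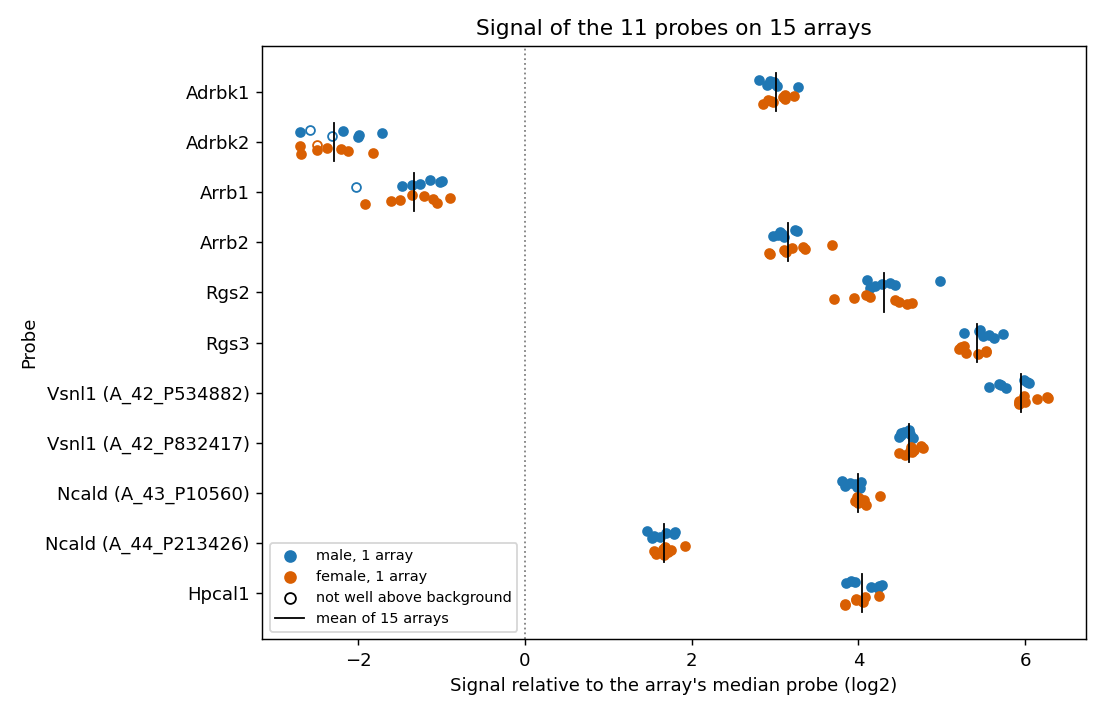
Signal of each member probe (log2 relative to the median probe of the array, x axis) on the 15 arrays; filled points are arrays on which the probe was well above background, and black lines are means. Adrbk2 and Arrb1 lie below the median probe of the array and hold the 4 open points, and brightness is not comparable between probes.

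The first comparison asked whether the epithelia of males and females differed. The nostrils of a rat were averaged, and 4 female rats were compared with 4 male rats by limma over 27625 probes, of which 12 (0.0434%) passed a false discovery rate of 1%. None of the 11 member probes passed, and none had an unadjusted p under 0.05, against 17.1% of all tested probes. The median absolute difference was 0.08 on the log2 scale for the member probes and 0.12 for all tested probes.

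The largest difference was that of Vsnl1. By A_42_P534882 the male rats were at 5.99, 6.03, 5.70 and 5.67 (rats 1, 2, 5 and 6) and the female rats at 6.13, 6.21, 5.96 and 5.92 (rats 3, 4, 7 and 8). The 2 lowest rats were males 5 and 6, the 2 highest were females 3 and 4, and the sexes overlapped between 5.92 and 6.03. The overlap was between rats of different slides: on slides 1 and 2 males 1 and 2 lay below females 3 and 4, and on slides 3 and 4 males 5 and 6 lay below females 7 and 8. On slide 1 itself, the array of female 3 was at 5.99, against 5.99 and 6.03 in males 1 and 2. Slides 2, 3 and 4 each held 1 sex, so sex and slide cannot be told apart there. The difference, female minus male, was 0.21 (95% confidence interval -0.02 to 0.44, limma adjusted p = 0.339). The other Vsnl1 probe gave 0.08 (-0.06 to 0.21, limma adjusted p = 0.548).

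Ncald was the member whose rats did not overlap between the sexes by one of its probes. By A_43_P10560 the male rats were at 3.81, 3.97, 3.90 and 4.00 and the female rats at 4.12, 4.04, 4.01 and 4.04, in the order of their numbers. The highest male and the lowest female differed by less than 0.01, and the difference was 0.13 (-0.01 to 0.28, limma adjusted p = 0.320). Groups that did not overlap were found for 11.3% of all tested probes, so 1 of 11 members is near the background. By the other Ncald probe the sexes overlapped, with males at 1.47 to 1.75 and females at 1.62 to 1.80 and a difference of 0.08 (-0.11 to 0.26, limma adjusted p = 0.682).

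Rgs3 was the member with the largest difference in the other direction. The male rats were at 5.46, 5.36, 5.65 and 5.56 and the female rats at 5.25, 5.22, 5.53 and 5.36. Males 5 and 6 had the highest levels and females 3 and 4 the lowest, and females 7 and 8 lay among the males, female 8 just above male 2. By rat means, both males lay above both females on slides 1 and 2 and on slides 3 and 4. Except on slide 1, sex and slide cannot be told apart there. On slide 1 the arrays overlapped, with female 3 at 5.27 against 5.46 in male 1 and 5.45 and 5.26 in male 2. The difference was -0.17 (-0.37 to 0.03, limma adjusted p = 0.363).

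The other genes had smaller differences. Adrbk1 was at 2.96 ± 0.14 in males and 3.04 ± 0.13 in females (SD, n = 4 rats), Arrb2 at 3.12 ± 0.09 and 3.21 ± 0.24, and Hpcal1 at 4.07 ± 0.19 and 4.01 ± 0.14. Rgs2 was at 4.33 ± 0.26 in males and 4.26 ± 0.35 in females, and the interval of its difference, -0.48 to 0.33, was wider than that of Adrbk1, -0.14 to 0.28. For the dim probes the intervals ran from -0.52 to 0.30 (Adrbk2) and from -0.45 to 0.39 (Arrb1).

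The sexes shared only slide 1, which held nostril A of female 3 and the 3 arrays of males 1 and 2. With slide as a block, slide 1 alone sets the sexes against each other. The arrays of slide 2 also enter the estimate through female 3, since arrays of 1 rat were fitted as correlated. Arrb2 was at 3.69 in that female against 3.24 and 3.16 in males 1 and 2, and Ncald, by A_43_P10560, was at 4.25 against 3.81 and 3.97. The blocked differences were 0.49 (0.25 to 0.73, limma adjusted p = 0.0247) for Arrb2 and 0.36 (0.15 to 0.56, limma adjusted p = 0.0482) for Ncald, and neither passed 1%. In that fit 2 of 11 members passed 5%, as 5.63% of all tested probes did. The same array was the highest of all 15 for both genes, and nostril B of the same female, on slide 2, was at 3.33 for Arrb2 and 3.98 for Ncald. Adding the block also turned the sign of the differences of Vsnl1 by A_42_P534882 (-0.04, limma adjusted p = 0.844), Hpcal1 (0.32, limma adjusted p = 0.0711) and Adrbk2 (0.06, limma adjusted p = 0.958). The other Vsnl1 probe, A_42_P832417, kept its sign at 0.21 (0.01 to 0.41, limma adjusted p = 0.216). The blocked interval of Adrbk1 was -0.06 to 0.47 and that of Vsnl1 by A_42_P534882 was -0.22 to 0.14.

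**Figure D2:**
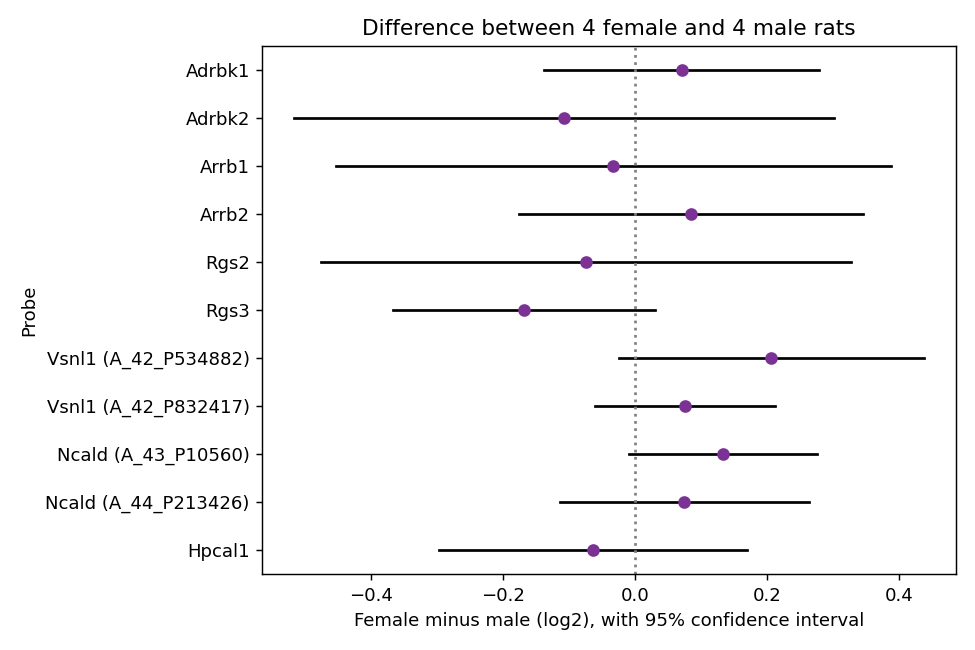
Difference between 4 female and 4 male rats (log2, x axis) for each member probe, with points for the estimate and lines for the 95% confidence interval. All 11 intervals include 0, the points lie between -0.17 for Rgs3 and 0.21 for Vsnl1, and the widest intervals are those of Adrbk2, Arrb1 and Rgs2.

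The second comparison asked whether the nostrils of a rat differed. In 7 rats nostril B was compared with nostril A within the rat, over 27574 probes, and 0 probes (0%) passed 1%, with 1623 at an unadjusted p under 0.05. No member passed at 1% or at 5%, and none had an unadjusted p under 0.05. No member had the same direction in all 7 rats, as 1.72% of tested probes had.

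Arrb1 came nearest, with a lower level in nostril B in 6 of 7 rats. Its differences, B minus A, were -0.03 in male 2, 0.15 in female 3, -0.20 in female 4, -0.09 in male 5, -0.56 in male 6, -0.11 in female 7 and -0.87 in female 8. The 2 largest of these involved nostril B of male 6, which was not well above background, and nostril B of female 8, at -1.92. The mean difference was -0.24 (95% confidence interval -0.53 to 0.04, limma adjusted p = 0.781).

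Vsnl1, by A_42_P534882, was higher in nostril B in 6 of 7 rats, by 0.07 on average (-0.04 to 0.18, limma adjusted p = 0.795). The differences of the remaining probes lay between -0.14 (Adrbk2) and 0.04 (Adrbk1). A difference of nostrils that itself differed between the sexes was also tested, and 0 of 11 members passed 1% (smallest limma adjusted p = 0.9996), with none at an unadjusted p under 0.05.

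The nostrils served as the repeat measurement of a rat in the third comparison, which asked whether rats of one sex differed from each other. Within a rat the standard deviation of the nostrils was 0.06 for Hpcal1, 0.07 for the Vsnl1 probe A_42_P832417, 0.08 for Adrbk1, 0.09 for Rgs3, 0.10 for Ncald (A_43_P10560) and for Vsnl1 (A_42_P534882), 0.11 for Ncald (A_44_P213426), 0.12 for Arrb2 and 0.18 for Rgs2. The dim probes varied most between nostrils, at 0.29 for Arrb1 and 0.31 for Adrbk2, more than 85.8% and 88.2% of tested probes. The median over all tested probes was 0.12.

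The standard deviation of the rat means exceeded that between nostrils for 7 of the 11 member probes, most for Hpcal1 (0.16 against 0.06, 2.68 times). For Rgs2 it was 0.29, for Arrb1 0.27, for Adrbk2 0.24, for Vsnl1 (A_42_P534882) 0.19, for Arrb2 0.18, for Rgs3 0.15 and for Adrbk1 0.13, against a median of 0.16 over all tested probes. Over all tested probes too, the median between rats (0.16) exceeded that between nostrils (0.12). For Adrbk2 and Arrb1 the standard deviation of the rat means was smaller than that between nostrils (0.77 and 0.93 times). Most rat means average both nostrils, and so spread less than single arrays where rats do not differ. These ratios therefore do not show that the rats were alike.

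**Figure D3:**
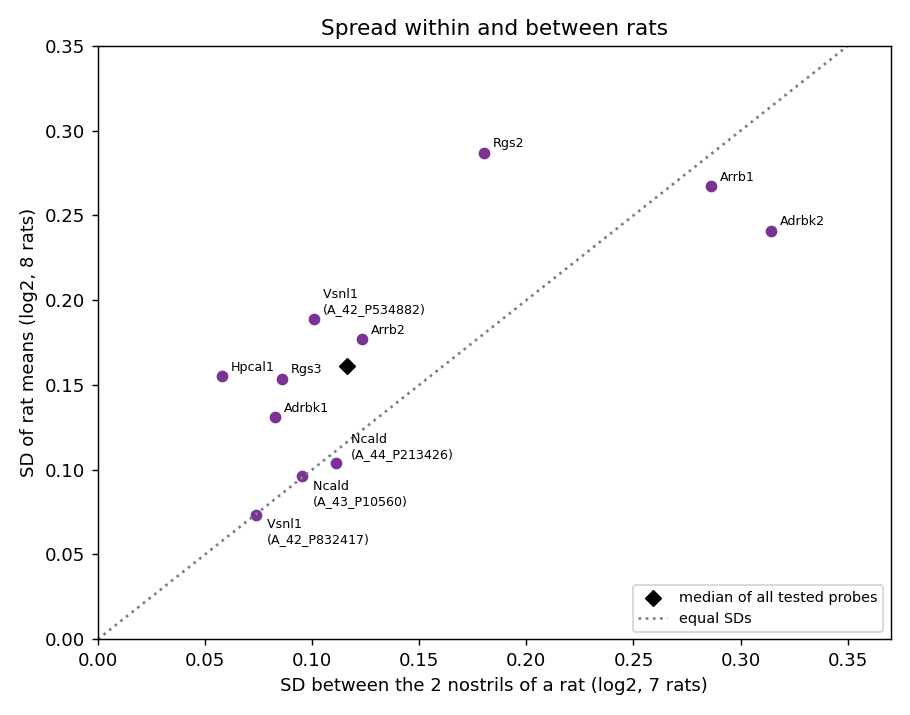
Standard deviation of the means of 8 rats (y axis, log2) against that between the nostrils of a rat in 7 rats (x axis, log2) for each member probe; the diamond is the median of all tested probes and the dotted line marks equal values. Hpcal1 lies highest above the line relative to its nostril spread, Adrbk2, Arrb1 and Ncald (A_44_P213426) lie below it, and the other Ncald probe and the second Vsnl1 probe lie on it. Most rat means average both nostrils, so the line does not mark the absence of a difference between rats.

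Over 27574 probes, 768 (2.79%) differed between rats of one sex at a false discovery rate of 1% by limma's F test, and none of the members did. At 5%, 4442 probes (16.1%) passed, and 3 of the 11 member probes did (27.3%): Hpcal1 (F = 10.4, limma adjusted p = 0.0156), Rgs2 (F = 7.33, limma adjusted p = 0.0304) and Vsnl1 by A_42_P534882 (F = 5.80, limma adjusted p = 0.0472). Rgs3, Arrb2 and Adrbk1 followed, with adjusted p of 0.0599, 0.0617 and 0.0826 by limma. These 6 were the members with an unadjusted p under 0.05, as 37.1% of all tested probes had. The median F of the members was 4.24 and that of all tested probes 2.37. With slide as a block, only rats of one sex that shared a slide were compared with each other. Gaps between rats of different slides were not tested there, so that fit cannot decide on them. In that narrower fit, 1 probe of the array passed 1% and no member passed 5%, the lowest limma adjusted p being 0.246, for Hpcal1.

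Hpcal1 varied little between nostrils and in steps between rats. The males were at 3.91 (rat 1), 3.91 (rat 2), 4.27 (rat 5) and 4.19 (rat 6), and the females at 4.16 (rat 3), 3.97 (rat 4), 4.05 (rat 7) and 3.84 (rat 8). Males 5 and 6, which shared slide 3, were higher than males 1 and 2, which shared slide 1, with no overlap of the arrays. The females of slide 4 were also apart, at 4.05 on both arrays of female 7 and 3.84 and 3.85 in female 8. The range of rat means was 1.34-fold. The arrays of males 5 and 6 had the lowest array medians, at 57.4 to 61.4 units. Before division by the median, their Hpcal1 intensities (1041 to 1171 units) overlapped those of males 1 and 2 (1024 to 1102 units). Without each rat in turn, the limma adjusted p stayed between 0.0114 and 0.0445.

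Rgs2 had the widest range of rat means, 1.80-fold. The males were at 4.10 (rat 1), 4.68 (rat 2), 4.36 (rat 5) and 4.17 (rat 6), and the females at 4.12 (rat 3), 3.83 (rat 4), 4.46 (rat 7) and 4.61 (rat 8). In females the arrays of rats 7 and 8 (4.44 to 4.64) lay above those of rats 3 and 4 (3.71 to 4.14). In males the highest mean came from male 2, whose nostrils were at 4.98 (A) and 4.38 (B), a gap of 0.60 that was the widest of the 7 rats, while the next was 0.24, in female 4. Without male 2, F was 20.05 and Rgs2 passed 1% (limma adjusted p = 0.00841). Without female 4, female 7 or female 8 it no longer passed 5% (limma adjusted p = 0.0754, 0.0587 and 0.0805).

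The Vsnl1 probes gave different accounts of the same rats. By A_42_P534882, the levels given above put males 5 and 6 below every other rat, with arrays at 5.57 to 5.77 against 5.92 to 6.27 in the other 6 rats. By A_42_P832417 the rat means were 4.61, 4.53, 4.56 and 4.57 in males 1, 2, 5 and 6 and 4.69, 4.72, 4.64 and 4.52 in females 3, 4, 7 and 8, a range of 1.15-fold, and the arrays of males 5 and 6 (4.49 to 4.65) overlapped those of the other males (4.51 to 4.61). The second probe was not called (F = 1.43, limma adjusted p = 0.406), and its standard deviation over rats was in the lowest 5.80% of tested probes. The call by the first probe was lost without male 2, male 5, female 4, female 7 or female 8, in turn, with limma adjusted p of 0.0683 to 0.136.

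**Figure D4:**
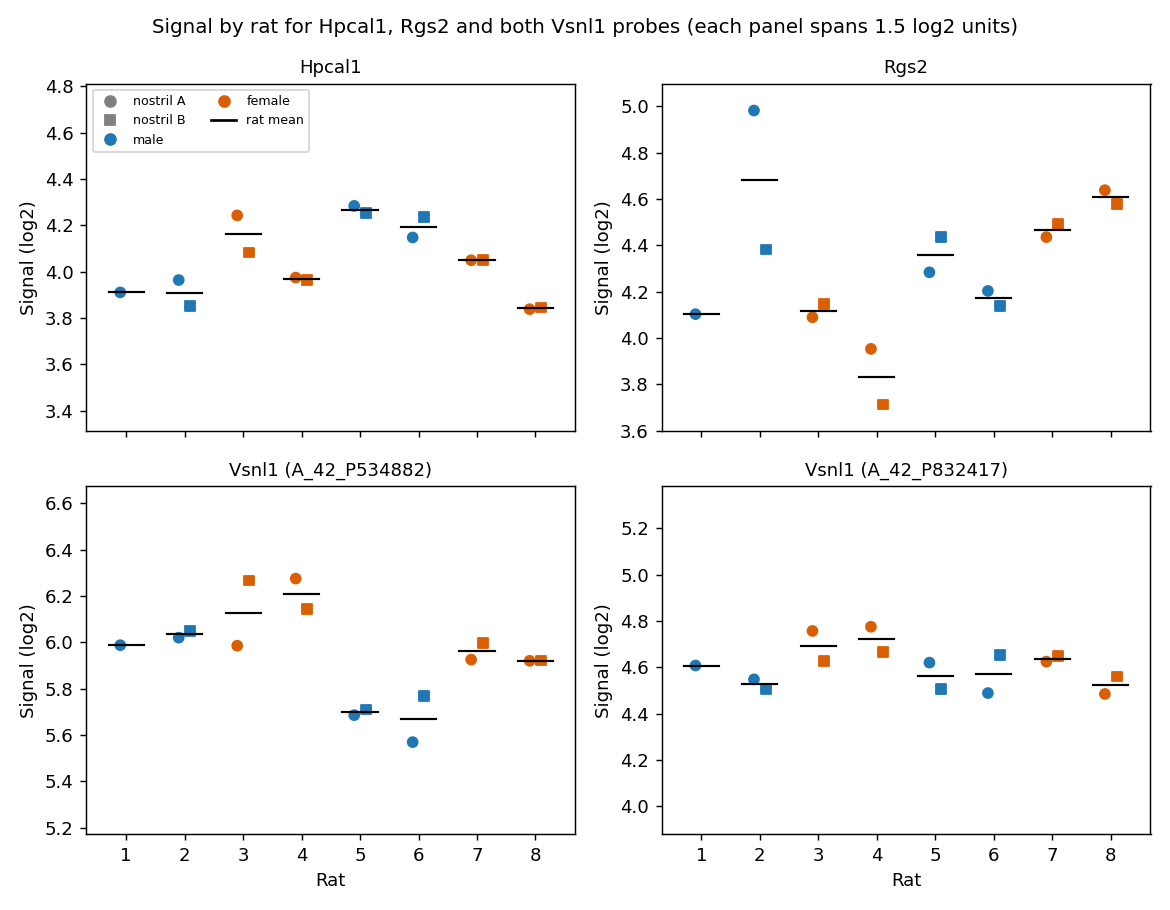
Signal (log2, y axis) of nostrils A (circles) and B (squares) by rat (x axis) for Hpcal1, Rgs2 and both Vsnl1 probes, with males in blue, females in orange and black lines for rat means; each panel spans the same width of the log2 scale. The nostrils of male 2 are apart for Rgs2, and males 5 and 6 are low by the first Vsnl1 probe and not by the second.

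The Ncald probes, unlike those of Vsnl1, both showed little variation. Their standard deviations over rats were 0.10 and 0.10, in the lowest 15.9% and 20.1% of tested probes, and neither was called (F = 0.86 and 1.403, limma adjusted p = 0.629 and 0.414). Male 1 was the lowest rat and female 3 the highest by both. Adrbk1 also had male 1 as its lowest rat, at 2.81, and female 3 as its highest, at 3.18, a range of 1.29-fold. Arrb2 was highest in female 3 (3.51) and lowest in female 8 (2.93), a range of 1.49-fold. Rgs3 ranged 1.35-fold, from 5.22 in female 4 to 5.65 in male 5.

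The slides moved with several of these levels. Vsnl1 (A_42_P534882) had means of 6.01, 6.23, 5.68 and 5.94 on slides 1 to 4, Hpcal1 of 3.99, 4.01, 4.23 and 3.95, and Rgs2 of 4.39, 3.94, 4.27 and 4.54. Arrb2 was higher on slides 1 and 2 (3.31 and 3.30) than on slides 3 and 4 (3.05 and 3.03), and Arrb1 likewise (-1.12 and -1.07 against -1.52 and -1.52). Slides 2, 3 and 4 each held rats of 1 sex, and no rat except female 3 was on more than 1 slide. A difference between rats of different slides therefore cannot be told apart from one between the slides. Nor can it be told apart from one between the suppliers, which the labels do not assign to rats.

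Markers of other cells differed between the same rats. The red blood cell markers Hbb and Alas2, both detected on 15 arrays, had a summed level of 7.42 to 10.43 (log2) on male and 5.86 to 9.84 on female arrays, and were highest in male 6 and lowest in female 7. The 5 bone probes, of Bglap2, Ibsp and Col1a1, were at 11.39 to 12.87 on male and 10.83 to 12.21 on female arrays, highest in male 5 and lowest in female 4. Among the members, female 4 was the lowest rat for Rgs2 and Rgs3 and the highest for Arrb1 and both Vsnl1 probes. Male 5 was the highest for Rgs3, Hpcal1 and Adrbk2, and the highest rat for Rgs2 was male 2. The part of these cells in the levels of Hpcal1, Rgs2 and Vsnl1 was not tested.

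The neuron markers ranged less widely. The mature olfactory neuron list (Omp, Gnal, Adcy3 and Cnga2, all 6 probes expressed) had a summed level of 10.01 to 10.39 on male and 9.99 to 10.40 on female arrays. The immature neuron list (Gap43, Dpysl3 and Stmn2) was at 9.53 to 9.82 and 9.55 to 9.87. These defining markers of the labelled tissue were well above background on all 15 arrays. Of olfactory bulb neuron markers, Slc17a7 was detected on 6 arrays, the 3 Gad1 probes on 12, 4 and 1, and Th and Gad2 on all 15 at levels near the median probe, and the summed list ranged from 1.37 to 2.46 in males and from -0.19 to 3.17 in females. The skeletal muscle probes of Ckm and Acta1 were each well above background on 2 arrays, nostril A of male 6 and nostril A of female 7, where their summed level was 1.34 and 3.49, against a floor of -2.32. On these arrays Vsnl1 (A_42_P534882) was at 5.57 and 5.93, Hpcal1 at 4.15 and 4.05 and Rgs2 at 4.20 and 4.44, against 5.77 and 6.00, 4.23 and 4.05, and 4.14 and 4.49 in nostril B of the same rats. The sustentacular cell list (5 probes, all expressed) was at 11.39 to 11.68 on male and 11.54 to 11.85 on female arrays, and the leukocyte list (7 probes, 4 expressed) at 6.60 to 7.27 and 6.42 to 6.81.

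The relatives of the members were examined as lists. The 7 lists held 67 names, of which 54 were on the array with 80 probes, and 64 probes were tested. No probe of these lists passed 5% between the sexes or between nostrils. Between rats of one sex, 3 passed 1% and 11 passed 5% (17.2%, against 16.1% of all tested probes).

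Of the other receptor kinases, Gprk2l, Gprk5 and Gprk6 were expressed, and Grk1, the rhodopsin kinase of the retina, was well above background on 6 arrays. One of the Gprk2l probes passed 5% between rats (A_44_P118082, F = 10.998, limma adjusted p = 0.0138), with rat means from 5.00 in female 8 to 5.42 in female 3, and the other did not (limma adjusted p = 0.0880). The visual arrestins Sag and Arr3 were not expressed, with Sag well above background on 2 arrays and the Arr3 probes on 1 and 0. Arrb1 and Arrb2 were therefore the only arrestins scored as expressed among the 4 listed.

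Of 15 other RGS genes found on the array, 11 were expressed. Those called at 5% between rats were Rgs6 (A_44_P175234, F = 17.4, limma adjusted p = 0.00504), both probes of Rgs19 (limma adjusted p = 0.00688 and 0.0446) and 1 of the Rgs4 probes (limma adjusted p = 0.0461). Rgs6 ranged from 1.104 in male 2 to 2.07 in female 3 by that probe, but by its other probe (A_44_P347299) the highest rat was male 1, at 0.82, and it was not called (limma adjusted p = 0.102). Rgs4 was lowest in female 4 and highest in male 5 by both of its probes, as Rgs3 was. Rgs16 was not detected on any array.

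Of 10 other neuronal calcium sensors found, 6 were expressed, and none was called at 5% between rats. Hpca (hippocalcin) was at 1.88 on average and Freq (Ncs1), a sensor found in many neurons, at -0.71. Rcvrn, the recoverin of photoreceptors, and Kcnip1 were not detected on any array.

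The calcium feedback list covers calmodulin, its kinases and phosphatase, and channel and phosphodiesterase subunits. Of its 25 probes, 22 were expressed and 4 passed 5% between rats. These were a Calm3 probe (A_44_P1027005, F = 26.8, limma adjusted p = 0.00199), Camk2a (A_44_P101625, limma adjusted p = 0.0269), Cnga4 (limma adjusted p = 0.0288) and Ppp3cb (limma adjusted p = 0.0434). The brighter Calm3 probe (A_44_P184465, mean 9.16) was not called (limma adjusted p = 0.782). Cnga4, a modulatory subunit of the olfactory channel, was lowest in male 2 (6.48) and highest in male 5 (6.89). In the list of other kinases and G protein subunits, Ric8b, an exchange factor for the olfactory G alpha subunit, passed 5% (limma adjusted p = 0.0292), with rat means from 3.74 in male 2 to 4.44 in female 3, as did 1 of the Prkacb probes (A_44_P402956, limma adjusted p = 0.0491). None of the 6 probes of Gnal, Adcy3, Cnga2 and Omp was called.

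The genes whose rat means were most like those of the 3 members with the highest F were sought among expressed probes with a gene symbol, 12557 for Hpcal1 and Rgs2, by Pearson's r over 8 rats. The rats share slides, and the nearest of many probes are named, so r is given as a description only. For Hpcal1 the nearest were Centg2 (r = 0.983), Ubc2e (0.977) and Psmb2 (0.970), and Psmb2, a proteasome subunit, itself ranged only from 8.07 to 8.24. For Rgs2 they were Cdk6 (0.973), Extl2 (0.957) and Igfbp3 (0.955), and Igfbp3, a binding protein of insulin-like growth factors, ranged from 2.26 to 3.00 over rats. For Vsnl1 (A_42_P534882) they were L3mbtl3 (0.991), Ppp1r12a (0.991) and Kpna1 (0.984), and Ppp1r12a, a subunit of myosin phosphatase, ranged from 4.81 to 5.39.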

How the data were processed

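Total RNA was labelled with Cy3 and hybridized to 1-colour Agilent 44K rat arrays, and the authors extracted spots with Feature Extraction 9.5.1.1. The deposited intensity values are background-subtracted processed signals. The deposited ratio table holds the authors' processed values of the same arrays, scaled per chip and per gene to medians, and served as an alternative. Member probes and gene lists were chosen with earlier results of these data known.

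From 45018 spots, outlier-flagged spots (61 to 175 per array) were left out and spots averaged into 41012 probes. Signals were divided by the array median (57.4 to 83.4 units), floored at 0.1 and taken as log2. On each array 26233 to 28741 probes were well above background. Probes detected on at least 7 arrays were tested with limma 3.58.1 (R 4.3.3, trended variance, Benjamini-Hochberg at 1%): sexes on rat means, nostrils within rats, and rats of one sex by F with nostrils as repeats. The methods name a t-test with the Benjamini-Hochberg correction without giving its samples; it was run on the 15 arrays as an alternative. Scripts were tested on simulated data. All 9 members are named, the main probe being the brightest; likeness was sought for the 3 with the highest F, with 3 genes each. The number of arrays limits precision. Scaling, background correction, floor, ratio table, probe filter, false discovery rate, slide and left-out rats were varied.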

Additional observations from a re-analysis of the deposited data

How the results depend on the processing

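No member probe passed 1% between the sexes or between nostrils under any of the alternatives run, which were other scalings, background correction, floor, the ratio table, probe filters, slide as a block, 15 arrays as separate samples, the methods' t-test and left-out rats; the lowest adjusted p between the sexes was 0.0247, with the slide block. Between rats of one sex the count was 0 under the other settings, 3 at a false discovery rate of 5%, and 0 to 1 when each rat was left out; the 1 was Rgs2 without male 2. At 5% that count of 3 became 4 with scaling to the 75th percentile and with quantile normalization, which added Rgs3 (limma adjusted p = 0.0238 with quantile normalization), 1 with the ratio table and with all probes tested (Hpcal1), and 0 with normexp. It was also 0 with the slide block, which compared only rats of one sex that shared a slide. With normexp, whose offset of 50 units is near the array medians, 76 of all probes passed 1%, against 768. All 11 probes stayed expressed by positive and significant signal and when any rat was left out, and 9 were detected on all 15 arrays.

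Signs of uncalled sex differences (female minus male, log2) turned in 13 of 126 alternative fits, which cover the main probe of each of the 9 genes and not the second Ncald and Vsnl1 probes. With the slide block they became 0.0571 (Adrbk2), -0.0403 (Vsnl1) and 0.317 (Hpcal1), and with normexp -0.0284 (Arrb2). With rats left out, the ranges were -0.214 to 0.0276 for Adrbk2, -0.183 to 0.0642 for Arrb1, -0.0140 to 0.178 for Arrb2, -0.191 to 0.0674 for Rgs2 and -0.117 to 0.00304 for Hpcal1. Those of Adrbk1, Ncald and Rgs3 kept their sign by these probes but moved in size, with 0.0188 to 0.206 for Adrbk1 (0.0714 as reported; lowest without male 1, highest with the slide block), 0.0573 to 0.356 for Ncald and -0.232 to -0.120 for Rgs3. The cause was not tested. The sexes share no replicate numbers, so rats were not paired. Slides 1 and 2 together and slides 3 and 4 together each held rats of both sexes, but a block on these sets was not run. Adrbk2 and Arrb1 signals lie near background, which limits their comparisons.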
